A study of Mus musculus with 2 samples.

Results

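Cdh4 and Cdh13 are 2 members of the cadherin superfamily that serve, with Spon1, Penk and Egr2, as subtype genes of taste neurons in the geniculate ganglion. They were taken by symbol as 2 of the 23392 genes present in both deposited tables. In the ganglion they were described over 371 of 454 single neurons, those with at least 2000 genes detected, and in the tongue over pools and single cells of taste epithelium. Cdh4 (ENSMUSG00000000305) lies on the plus strand at chr2:179442431-179899373 and Cdh13 (ENSMUSG00000031841) on the plus strand at chr8:118283733-119324921 of GRCm38. They are long protein-coding genes of 456943 and 1041189 bases, and no exon of another annotated gene overlaps the exons of either.

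Classical cadherins join cells through calcium-dependent contacts between like molecules and are anchored inside the cell by catenins, among them p120 catenin, the product of Ctnnd1. Cdh4 encodes R-cadherin, or retinal cadherin, a classical type I member best known from the developing nervous system, where it takes part in axon growth and in sorting of neurons. Cdh13 encodes T-cadherin, an unusual member held to the membrane by a lipid anchor. It has no cytoplasmic tail to bind catenins, and it also acts as a receptor for the adipose hormone adiponectin.

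The neurons came from geniculate ganglia of P2rx3-tdTomato mice on a C57BL/6 background. P2rx3 encodes a receptor for ATP, the transmitter of taste cells, and its reporter marks the cells that were picked by hand under a fluorescence microscope, so neurons without the reporter were not sampled. Cells were sequenced by CEL-Seq, which reads the 3′ end of transcripts, in 8 experiments labelled JC04, JC05 and JC07 to JC12. The labels do not say that the experiments used separate animals, so p-values over experiments measure the spread between these experiments. The 371 cells were split at 100 CPM (reads per 1000000 gene reads of a cell) of Piezo2, a mechanically gated channel, into 100 Piezo2-high and 271 Piezo2-low cells. Tongue cells came from Pkd2l1-tdTomato mice on the same background, in which acid-sensing (sour) taste cells carry the reporter. They were sorted into sour pools of reporter-positive cells (2 in the table), control pools of reporter-negative taste and supporting cells (4 in the table), and 56 single sour cells, of which 52 had at least 1000 genes. Ages and sexes are not given in the labels.

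The 371 neurons had between 9299 and 12716808 reads, with a median of 1091184. The median was 1692645 reads in Piezo2-high and 962690 in Piezo2-low cells. Reads were not collapsed to molecules, so the intervals given for shares (exact binomial, 95%) cover counting error only. Neuronal genes (Tubb3, Snap25, Uchl1 and others, 8 in all) summed to a median of 11096 CPM in Piezo2-high and 12083 CPM in Piezo2-low cells. Of the 10 genes of satellite glia and Schwann cells, Piezo2-high cells had a summed median of 2245 CPM (427 to 21233) and Piezo2-low cells 2099 CPM (227 to 66395). Each of the 10 fibroblast and endothelial markers had a median of 0 in both groups.

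Cdh4 RNA was found in few neurons and was concentrated in fewer still. At least 1 Cdh4 read was present in 49 of 371 cells (13.2%, interval 9.93 to 17.1%), and in 19 of these 49 cells the signal was 1 or 2 reads. Cdh4 reached 20 CPM in 18 cells (4.85%), 50 CPM in 12 cells (3.23%) and 100 CPM in 10 cells (2.70%). Among cells with a read the median was 6.48 CPM and the highest value 631 CPM. The 12 cells at 50 CPM or more held 90.1% of the 4142 Cdh4 reads, and 1 cell held 27.1%. Each of the 12 had at least 45 Cdh4 reads. The cell nearest above the 50 CPM threshold had 65.8 CPM and the nearest below had 42.1 CPM, so few cells lay near it. In what follows a cell with at least 50 CPM is called a Cdh4 cell or a Cdh13 cell.

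Cdh13 was the more widespread of the pair. A read was present in 135 of 371 cells (36.4%, interval 31.5 to 41.5%), with 1 or 2 reads in 36 of them. Cdh13 reached 20 CPM in 82 cells (22.1%), 50 CPM in 56 cells (15.1%) and 100 CPM in 38 cells (10.2%). Among cells with a read the median was 33.7 CPM and the highest value 876 CPM. Unlike those of Cdh4, the Cdh13 values ran through the threshold without a gap, at 50.04 CPM just inside and 47.2 CPM just outside it. The 56 Cdh13 cells held 88.6% of 15290 Cdh13 reads. In 1 of them, a shallow cell, the call rested on 1 read. As background, 26.7% of 19025 genes with any read were at 50 CPM in at least as many cells as Cdh13, and 49.5% in at least as many as Cdh4.

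Both genes were met in most experiments, but in unequal shares. Cdh13 cells made up 23.5% of 17 cells in JC04, 21.2% of 33 in JC05, 13.2% of 53 in JC07, 1.59% of 63 in JC08, 9.43% of 53 in JC09, 28.6% of 63 in JC10, 23.4% of 47 in JC11 and 7.14% of 42 in JC12. JC08, with 1 Cdh13 cell, and JC10, with 18, were the extremes although each gave 63 cells. Cdh4 cells numbered 4 in JC07, 2 each in JC05, JC10 and JC11, 1 each in JC09 and JC12, and 0 in JC04 and JC08. Cells with any Cdh4 read were present in all 8 experiments, from 2 cells in JC08 to 15 in JC07.

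Cells were pooled for amplification in libraries named by an adapter number, and the low signals lay more often in libraries that also held a strong cell. Of 31 cells with a Cdh4 read under 20 CPM, 26 (83.9%) shared a library with a Cdh4 cell, against 212 of 322 cells with no Cdh4 read (65.8%). For Cdh13 the figures were 51 of 53 cells (96.2%) against 198 of 236 (83.9%). Whether reads passed between cells of a library was not tested. The 2 cells with the most Cdh4, from JC11 and JC09, carry the same library and cell number. Such pairs of cells from different experiments numbered 153. The correlation of the 2 cells across genes was 0.44, against a median of 0.43 over the 153 pairs and of 0.42 over 59214 other pairs.

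The next question was whether the genes exclude each other. At 50 CPM, 1 of 12 Cdh4 cells was also a Cdh13 cell (8.33%, interval 0.211 to 38.5%), against 55 of the 359 other cells (15.3%, interval 11.8 to 19.5%). Independent occurrence would give 1.81 such cells. Among Piezo2-low cells alone 0 of 9 Cdh4 cells were Cdh13 cells, which allows a share of up to 33.6%, against 19.8% of the others. At 20 CPM the order was the opposite, with Cdh13 in 5 of 18 Cdh4-positive cells (27.8%), against 21.8% of the others. Thinning each cell to 100000 reads, which leaves 348 cells, gave 3 of 13 cells (23.1%) against 16.1%. These counts were too small to show whether the genes avoid each other.

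Only JC07 held at least 3 Cdh4 cells, so the share of Cdh13 cells among Cdh4 cells could not be tested over experiments. The reverse share could. Cdh4 cells were less frequent among Cdh13 cells than among the other cells by 2.08 ± 5.01 percentage points (SD, n = 7 experiments). The share was lower in 5, higher in 1 and equal in 1 that held no Cdh4 cell. The exact sign-flip permutation p was 0.344 (two-sided, adjusted p = 0.458 over 4 such tests). Where Cdh4 cells were present, independence would give only 0.0714 to 0.571 cells with both per experiment. A lower share was thus likely in advance, and the test cannot decide the question. With any Cdh4 read in place of 50 CPM, Cdh13 cells were less frequent by 4.29 ± 20.8 percentage points (n = 7), lower in 4 of 7, with an exact permutation p of 0.594.

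Cells with both genes at 20 CPM were 5 in number. In JC12 1 cell had 226 CPM Cdh4 and 26.9 CPM Cdh13, and in JC05 1 cell had 182 and 44.5 CPM. In JC07 1 cell, the only one with both at 50 CPM, had 88.8 CPM Cdh4 and 102.6 CPM Cdh13, from 45 and 52 reads. The remaining 2 were led by Cdh13, with 39.1 CPM Cdh4 and 247.5 CPM Cdh13 in JC10 and 34.9 and 352 CPM in JC07. Each of the 5 cells had at least 11 reads of either gene. The JC07 cell with both at 50 CPM, a Piezo2-high cell, had a glial marker sum of 8717 CPM. Piezo2-high cells had a median of 2245 CPM (427 to 21233). Doublets were not removed, and their part was not tested.

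**Figure D1:**
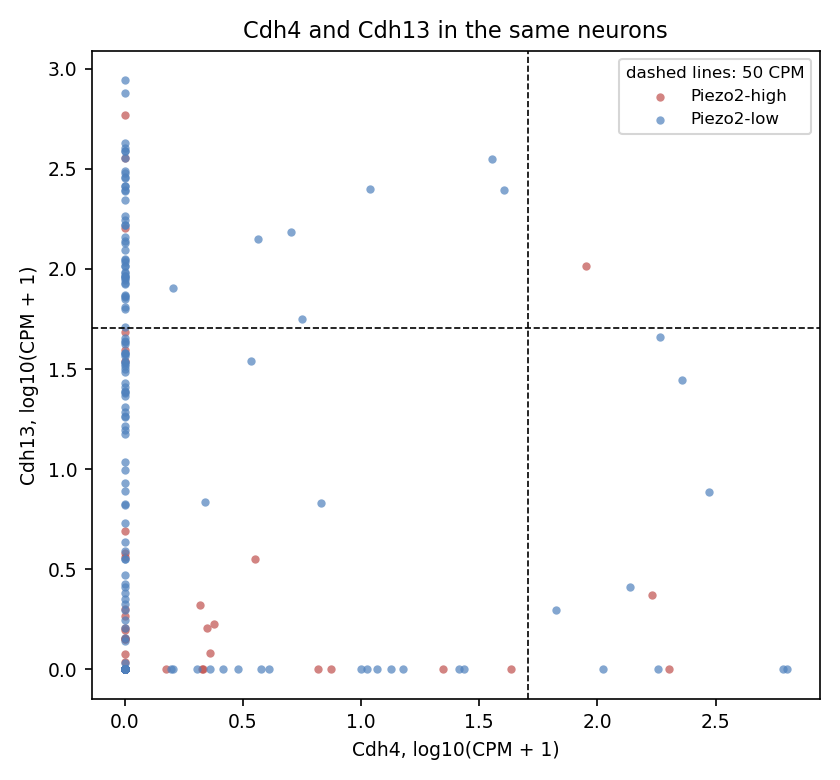
Cdh4 (x) against Cdh13 (y) in each of 371 neurons, as log10(CPM + 1), Piezo2-high cells in red and Piezo2-low cells in blue, with dashed lines at 50 CPM. Most cells with Cdh13 lie at 0 Cdh4, and 1 cell lies above both lines.

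The 12 Cdh4 cells were not alike. They are described with Spon1, which encodes a secreted matrix protein and is itself a subtype gene, with Ret, the signalling receptor for glial-derived neurotrophic factors, and with Htr3a, a serotonin-gated channel. The JC11 cell with 631 CPM Cdh4 had 332 CPM Spon1, 308 CPM Ret and no Htr3a read. The JC09 cell with 607 CPM Cdh4 had 217 CPM Spon1, 437 CPM Ret and no Htr3a read. In JC07 a cell of 180 CPM Cdh4 had 242 CPM Spon1 and 402 CPM Ret, and in JC10 a cell of 65.8 CPM Cdh4 had 221 CPM Spon1 and 256 CPM Ret. These 4 cells, from 4 experiments, shared Spon1 and Ret with little or no Htr3a.

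The other Piezo2-low Cdh4 cells had under 20 CPM Spon1. The JC10 cell of 137 CPM Cdh4 had the highest Ret value, 691 CPM, with 17.5 CPM Spon1. In JC12 and JC05, cells of 226 and 182 CPM Cdh4 had Ret at 141 and 113 CPM and no Spon1 read. The second JC05 cell, of 297 CPM Cdh4, had 1636 CPM Htr3a and 16.7 CPM Ret, and the JC11 cell of 105 CPM Cdh4 had 1857 CPM Tac1, the substance P gene, 159 CPM Htr3a and no Ret read. These last 2 cells thus carried Cdh4 in a setting of Htr3a rather than of Ret.

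The remaining 3 Cdh4 cells were Piezo2-high, and all 3 came from JC07. They had 199, 169 and 88.8 CPM Cdh4, Piezo2 at 614, 386 and 233 CPM, and Egr2 at 2603, 116 and 698 CPM. Egr2, a subtype gene in taste neurons, is also the transcription factor of myelinating Schwann cells. The summed glial markers in these 3 cells were 21233, 6480 and 8717 CPM, whereas the 9 Piezo2-low Cdh4 cells had sums of 1676 to 5364 CPM. The part of glial RNA in the Egr2 and Cdh4 of these cells was not tested.

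**Figure D2:**
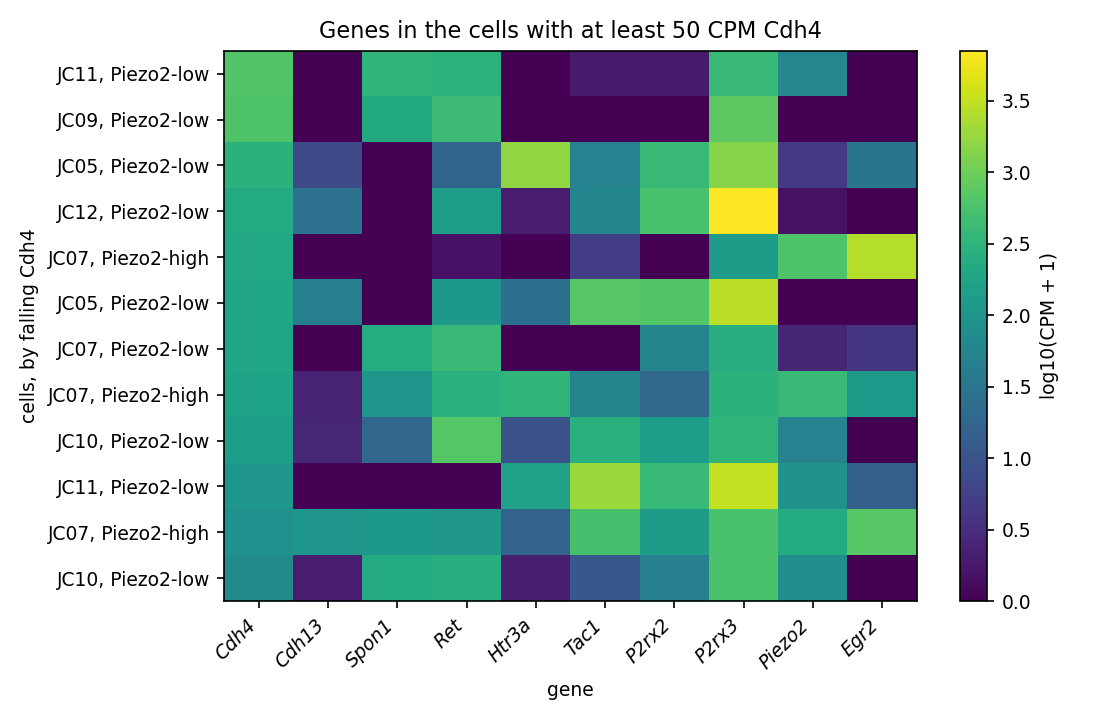
Log10(CPM + 1) of Cdh4, Cdh13 and marker genes in each of the 12 Cdh4 cells, ordered by Cdh4 (631 CPM the highest, 65.8 CPM the lowest). Ret is at 100 CPM or more in 9 cells and Spon1 in 5, while Htr3a reaches 100 CPM in 3.

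Cdh4 cells were compared with the other Piezo2-low cells (9 against 262). Ret was at 50 CPM or more in 77.8% of Cdh4 cells (interval 40.0 to 97.2%) and in 20.6% of the others (15.9 to 26.02%), with medians of 256 CPM and 0.31 CPM. Spon1 was at 50 CPM in 44.4% of Cdh4 cells and 18.7% of the others, Htr3a in 22.2% and 44.7%, Tac1 in 44.4% and 69.8%, and P2rx2, the partner subunit of the ATP receptor, in 66.7% and 80.9%. These shares count cells rather than experiments, and the share of all genes with a difference of this size was not computed. They are a description only.

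No experiment held 3 Piezo2-low Cdh4 cells, so sums of reads could not be compared. Instead the mean over cells of log2(CPM + 1) was taken per experiment and group. It was fitted with limma, with experiment as a block and weights for the number of cells. The fit used the 6 experiments with a Piezo2-low Cdh4 cell, which leaves out JC04 and JC08. No gene of 9777 was called (0.00% higher, 0.00% lower; adjusted p under 0.05 and a 2-fold change), and 752 (7.69%) had an unadjusted p under 0.05. Ret differed by 4.36 on the log2 scale (SE 0.79, adjusted p = 0.443 in limma) and stood at place 7 by p. Over the alternative settings this difference ranged between 2.92 and 5.25, with adjusted p between 0.123 and 0.810. Spon1 differed by 2.29 (adjusted p = 0.654 in limma), Htr3a by -2.03, Tac1 by -2.10 and Penk, an opioid peptide gene, by -0.52, and none of these passed the test. P2rx3, P2rx2 and Egr2 did not pass either, nor did Piezo2, which differed by 1.73 (SE 1.24, adjusted p = 0.743 in limma). Several of the 9 Cdh4 cells lay not far under the Piezo2 limit of 100 CPM. Piezo2 was at 93.9 and 59.7 CPM in the JC11 cells and at 76.8 and 49.3 CPM in the JC10 cells. In the other Piezo2-low Cdh4 cells it was at most 3.33 CPM.

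The gene lists fixed for adhesion, guidance, receptors and cell identity likewise had no called gene in this comparison. Of 13 catenins and junction partners tested, 2 had an unadjusted p under 0.05, and the list's median difference was 0.26, against 0.37 over all genes tested. One of the 2 was Ctnnd1, the gene of p120 catenin, a catenin that binds the tail of classical cadherins. It was at 50 CPM in 88.9% of Cdh4 cells and 40.1% of the others, a difference of 3.08 (adjusted p = 0.532 in limma). Cdh1, which encodes E-cadherin, was at 50 CPM in 55.6% and 24.0% (difference 2.25, adjusted p = 0.590 in limma). Runx1, a transcription factor of sensory neuron subtypes, was at 50 CPM in 44.4% of Cdh4 cells and 4.96% of the others (3.14, adjusted p = 0.570 in limma). Calca, the gene of the peptide CGRP, was at 50 CPM in 0 of 9 Cdh4 cells, which allows a share of up to 33.6%, and in 23.7% of the others (-1.92, adjusted p = 0.542 in limma). These members did not pass the threshold over all genes.

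Cdh13 cells were the larger group, with 52 Piezo2-low cells against 219 others. P2rx2 was at 50 CPM in 94.2% of Cdh13 cells (interval 84.1 to 98.8%) and 77.2% of the others (71.0 to 82.6%), with medians of 325 and 234 CPM. P2rx3 was at 50 CPM in 100% and 96.3%, with medians of 1709 and 1405 CPM, and was thus near its ceiling in both groups. Htr3a was at 50 CPM in 51.9% of Cdh13 cells and 42.01% of the others, Tac1 in 73.1% and 68.0%, Spon1 in 17.3% and 20.1%, Ret in 25% and 21.9%, Penk in 3.85% and 11.9%, Egr2 in 1.92% and 6.85%, and Piezo2 in 5.77% and 7.31%.

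Reads of Cdh13 cells and of the other Piezo2-low cells were summed per experiment and compared with edgeR's quasi-likelihood test in the 7 experiments with at least 3 cells of each. No gene of 10269 was called (0.00% higher, 0.00% lower), and 364 (3.54%) had an unadjusted p under 0.05. DESeq2 called 19 genes higher and 246 lower on the same sums. Since sums weigh cells by depth, and the median log2 change over all genes was -0.48, the fit on means of log2 values was added. It also called 0 of 9777 genes, with 857 (8.77%) at an unadjusted p under 0.05. P2rx2 differed by 0.94 (SE 0.33, adjusted p = 0.437 in limma), P2rx3 by 0.50 and Penk by -0.76, and none passed the test. With Cdh13 cells defined at 20 CPM, P2rx2 differed by 1.305 with an adjusted p of 0.0399 in limma. At that setting 121 of 9777 genes were called higher and 0 lower. The median difference over all genes there was 0.34, so P2rx2 rose amid a general upward shift.

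The fixed lists had no called member in the comparison of Cdh13 cells with the others. Eya2, a transcriptional coactivator of placode-derived neurons, was at 50 CPM in 30.8% of Cdh13 cells and 10.96% of the others (difference 1.83, adjusted p = 0.337 in limma). With cells defined at 20 CPM its adjusted p was 0.0399 in limma, where 121 of 9777 genes were called higher and 0 lower. Clstn2, which encodes the synaptic cadherin calsyntenin 2, was at 50 CPM in 57.7% and 47.03% (1.39, adjusted p = 0.337 in limma). Adcyap1, the gene of the peptide PACAP, was at 50 CPM in 42.3% and 29.2% (1.51, adjusted p = 0.337 in limma). Cdh1 was at 50 CPM in 17.3% of Cdh13 cells and 26.9% of the others (-1.04, adjusted p = 0.5004 in limma). For the adiponectin system, no cell of 371 had a read of Adipoq, the hormone's gene, while Adipor1 was read in 79.0% and Adipor2 in 35.6% of cells. Adipor2 was at 50 CPM in 19.2% of Cdh13 cells and 8.68% of the others, and did not pass the test.

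Cdh4 itself had low sums in Cdh13 cells. Summed over Cdh13 cells it averaged 1.41 ± 1.82 CPM, against 13.3 ± 9.50 CPM over the other Piezo2-low cells (SD, n = 7 experiments), and it was lower in all 7. The log2 fold change was -5.53 (SE 2.27), with an adjusted p of 0.994 in edgeR, and the difference of means of log2 values was -0.22 (adjusted p = 0.865 in limma). These sums rest on 78 Cdh4 reads in Cdh13 cells and 3348 in the others, which include the 9 Piezo2-low Cdh4 cells.

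Cdh13 cells and the 9 Cdh4 cells were also set directly against each other, in the 6 experiments that held both. Of the 52 Piezo2-low Cdh13 cells, the 4 of JC04 and the 1 of JC08 were thus left out. No gene of 10148 was called in the limma fit of means (0.00% higher, 0.00% lower), and 573 (5.65%) had an unadjusted p under 0.05. Ret differed by -4.49 (SE 0.78, adjusted p = 0.483 in limma), at place 2 by p. Ctnnd1 differed by -3.22 (adjusted p = 0.483 in limma), Runx1 by -3.18, Cdh1 by -2.98 and Spon1 by -2.64. On the Cdh13 side, Clstn2 differed by 2.58 (adjusted p = 0.841 in limma), Htr3a by 2.26 and Tac1 by 2.07. None passed the test. This comparison and the one of Cdh4 cells with the other Piezo2-low cells use the same 9 Cdh4 cells.

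Piezo2-low cells were also divided by Htr3a and Tac1, at 50 CPM for each, and both cadherins were counted in the resulting classes. Cdh13 cells were 23 of 86 cells with both Htr3a and Tac1 (26.7%, interval 17.8 to 37.4%), 4 of 33 with Htr3a alone (12.1%), 15 of 101 with Tac1 alone (14.9%) and 10 of 51 with neither (19.6%). Cdh4 cells were 1, 1, 3 and 4 cells of the same classes, the highest share being 7.84% (2.18 to 18.9%) in cells with neither. The intervals of the 4 classes overlapped for both genes. A division by Spon1 and Ret, chosen after the values of the Cdh4 cells were seen, is a description only. Cells with both Spon1 and Ret were 13, of which 4 (30.8%) were Cdh4 cells and 2 (15.4%) Cdh13 cells. Cells with Spon1 alone were 40, of which 0 were Cdh4 cells and 7 (17.5%) Cdh13 cells. Cells with Ret alone were 48, with 3 Cdh4 cells (6.25%) and 11 Cdh13 cells (22.9%), and cells with neither were 170, with 2 Cdh4 cells (1.18%) and 32 Cdh13 cells (18.8%).

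Among 9776 genes with a read in at least 10% of the 271 Piezo2-low cells, the following had the values most like each cadherin. With values centred within experiment, Spearman's rho with Cdh13 was highest for Srek1ip1 (0.32) and Olfm3 (0.31), an olfactomedin gene of neurons, and no other gene reached 0.3. Without centring 6 genes did, led by Pde4d (0.34), Actg1 (0.32) and Gpc1 (0.32), while Olfm3 had 0.29. For Cdh4 the 10 highest values were between 0.47 and 0.52, led by Gstk1 and Ddx51 (0.52 each). Without centring their rho was 0.22 and 0.16, and 1 gene, Acot11, reached 0.3 (0.32). Most cells are at 0 for Cdh4 and for these genes, and centring gives all zero cells of an experiment the same shifted value. The points share experiments and differ in depth, whose part was not tested.

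The clearest difference of Cdh13 in the ganglion was by Piezo2. Cdh13 cells were 4 of 100 Piezo2-high cells (4%, interval 1.10 to 9.93%) and 52 of 271 Piezo2-low cells (19.2%, 14.7 to 24.4%). In Piezo2-high against Piezo2-low cells the share was 0 against 36.4% in JC04, 0 against 31.8% in JC05, 10.3% against 16.7% in JC07 and 0 against 2.63% in JC08. It was 5.88% against 11.1% in JC09, 0 against 30% in JC10, 0 against 26.8% in JC11 and 0 against 7.69% in JC12. The Piezo2-high shares rest on few cells in JC10 and JC12 (3 cells each, where a count of 0 allows up to 70.8%) and in JC04 and JC11 (6 cells each, up to 45.9%), and on 11 to 29 cells in the other 4 experiments. The share was thus lower in Piezo2-high cells in 8 of 8 experiments, by 18.4 ± 14.1 percentage points on average (SD, n = 8). The exact sign-flip permutation p was 0.00781, two-sided, the smallest that 8 experiments allow (adjusted p = 0.0312 over 4 tests). JC08 held only 1 Cdh13 cell, and JC12 held 3 beside 3 Piezo2-high cells. In these a lower share was likely in advance, which the test does not allow for. As background, 1.66% of 10342 genes with at least 8 cells at 50 CPM were lower in 8 of 8 experiments and 2.04% were higher in 8 of 8. By its mean difference Cdh13 ranked 186 from the lowest of these genes, whose median difference was 1.41 points.

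Depth was unequal, with more reads in Piezo2-high cells. After thinning to 100000 reads the mean difference in the share of Cdh13 cells was 15.5 points, lower in 7 experiments and higher in 1, with an exact permutation p of 0.0703. At 100 CPM it was 10.9 points and at 20 CPM 25.8 points, with exact permutation p of 0.0156 and 0.00781.

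In reads summed per experiment, Cdh13 averaged 4.97 ± 10.001 CPM in Piezo2-high cells and 43.1 ± 27.3 CPM in Piezo2-low cells (SD, n = 8). The Piezo2-high sums were below 1 CPM in 6 experiments, 10.8 CPM in JC07 and 27.9 CPM in JC09, while the Piezo2-low sums ran between 9.82 CPM in JC08 and 90.5 CPM in JC04. JC09 was the only experiment in which the Piezo2-high sum was the larger, at 27.9 CPM against 13.3 CPM, and 1482 of its 1487 Piezo2-high Cdh13 reads came from 1 cell. The fall of 6.76 on the log2 scale (SE 1.83) did not pass over all genes in edgeR (adjusted p = 0.0887), where 0.729% of 11108 genes were called higher and 1.24% lower. Without JC09 the log2 fold change was -7.77 (adjusted p = 0.0481 in edgeR). In the fit of means of log2 values Cdh13 fell by 1.32 (SE 0.37, adjusted p = 0.0300 in limma), where 8.00% of 10029 genes were called higher and 2.51% lower.

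**Figure D3:**
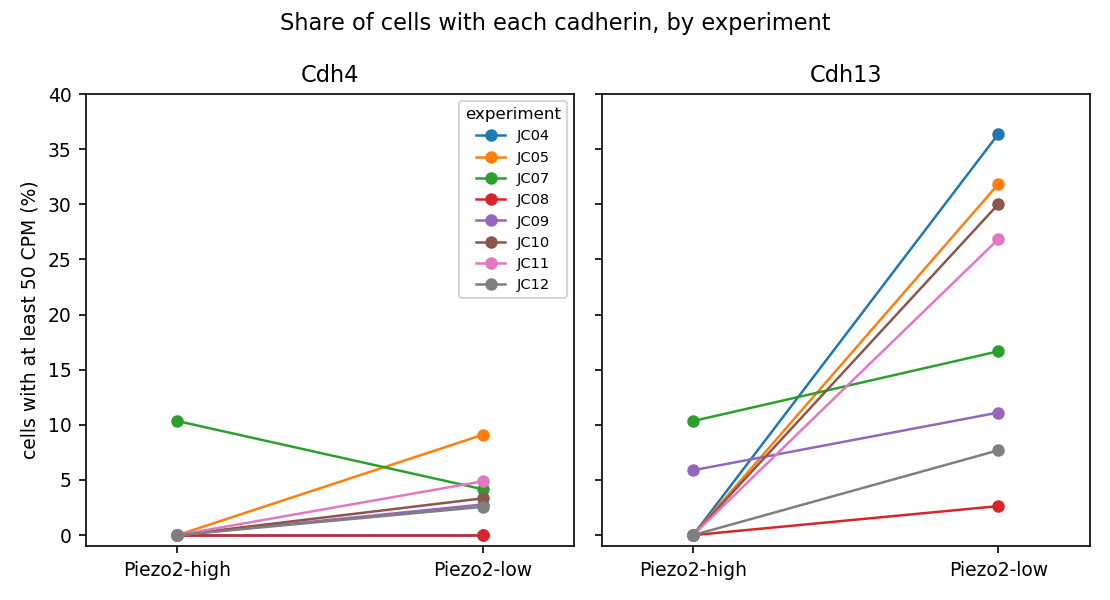
Share of neurons (percent) at 50 CPM or more of Cdh4 (left panel) and Cdh13 (right panel) in Piezo2-high and Piezo2-low cells, with a line for each of the 8 experiments. Every line of Cdh13 rises toward Piezo2-low cells, where shares run between 2.63 and 36.4%, while lines of Cdh4 cross.

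For Cdh4 the share of cells by Piezo2 did not pass the permutation test, and the fits disagreed. Cdh4 cells were 3 of 100 Piezo2-high cells (3%, interval 0.623 to 8.52%) and 9 of 271 Piezo2-low cells (3.32%, 1.53 to 6.21%). The difference per experiment was -2.06 ± 4.41 percentage points (SD, n = 8), lower in 5, higher in 1 and equal in 2, with an exact permutation p of 0.281. Without JC07, which held all 3 Piezo2-high Cdh4 cells, no Piezo2-high cell reached 50 CPM. Cdh4 sums averaged 2.35 ± 5.43 CPM in Piezo2-high and 9.51 ± 7.16 CPM in Piezo2-low cells, a log2 fold change of -5.42 (SE 1.90, adjusted p = 0.213 in edgeR); DESeq2 on the same sums called it, at -5.54 (adjusted p = 0.000143). In means of log2 values the difference was -0.17 (adjusted p = 0.675 in limma).

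Other cadherins show how these genes stand in their family. E-cadherin RNA had the opposite order: Cdh1 averaged 843 ± 334 CPM in Piezo2-high and 180 ± 76.1 CPM in Piezo2-low cells, and rose in Piezo2-high cells by 2.36 on the log2 scale (SE 0.41, adjusted p = 0.00988 in edgeR; higher in 8 of 8). It was 1 of 4 tested type I cadherins called, where 0.729% of all 11108 genes were called higher and 1.24% lower. Of 5 tested type II cadherins and 9 other cadherins, including Cdh13, 0 were called in the sums. The lowest adjusted p of a type II member was that of Cdh22, at 0.586 ± 1.02 CPM in Piezo2-high and 11.1 ± 7.97 CPM in Piezo2-low cells (adjusted p = 0.0732 in edgeR). Of 8 unclustered protocadherins 1, Pcdh7, was called in the sums. In the means of log2 values, where 8.00% of 10029 genes were called higher and 2.51% lower, 1 of 4 type I cadherins rose in Piezo2-high cells (Cdh1), 0 of 5 type II cadherins were called, and of 8 other cadherins 2 rose (Fat3 by 1.55, Clstn2 by 1.11) and 1, Cdh13, fell. Of 7 protocadherins Pcdh7 rose by 3.67 (adjusted p = 9.52e-05 in limma), while Pcdh19 fell by 1.17 and Pcdh17 by 1.21. Of 13 catenins and junction partners 4 rose and 0 fell. Jup, the gene of plakoglobin, had the lowest p, with a rise of 1.97, and Pvrl1 rose the most, by 2.18. As a check of the division, P2rx2 averaged 13.3 ± 15.6 CPM in Piezo2-high and 346 ± 50.3 CPM in Piezo2-low cells (adjusted p = 0.00988 in edgeR). Over all 371 cells the most widespread classical cadherins were Cdh1, read in 75.5%, Cdh11 in 71.4% and Cdh2, N-cadherin, in 59.6%.

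In the tongue, neither gene was called between sour and control pools, where 15.0% of 7739 genes were called higher, 14.4% lower, and 38.9% had an unadjusted p under 0.05. Cdh13 was at 193.5 and 127.3 CPM in the sour pools (78 and 24 reads) and at 161.5, 186.3, 173.7 and 119.3 CPM in the control pools (110, 71, 65 and 41 reads). The means were 160 ± 46.8 CPM in sour pools (SD, n = 2) and 160 ± 29.1 CPM in control pools (SD, n = 4), and the groups overlapped. The log2 fold change was -0.01 (SE 0.37, interval -0.73 to 0.71, adjusted p = 0.989 in edgeR). In bulk pools fewer cells with the gene and less RNA per cell cannot be told apart.

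Cdh4 differed between the 2 sour pools more than between any sour and control pool. It was at 84.3 CPM in sour pool 1 (34 reads) and had 0 reads of 188503 in sour pool 2, where 3 reads would be 15.9 CPM. The control pools had 19.1, 36.7, 16.0 and 43.6 CPM (13, 14, 6 and 15 reads). The log2 fold change was 0.66 (SE 0.86, interval -1.04 to 2.35, adjusted p = 0.627 in edgeR). It was -6.52 without sour pool 1 and 1.499 without sour pool 2 (adjusted p = 0.108 and 0.168 in edgeR). Each of these fits leaves 1 sour pool, which is assumed to vary like the control pools, and the fitted change of a pool with 0 reads is no bound.

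The sort itself separated the pools: 7 markers of sour (type III) taste cells summed to 18722 and 11910 CPM in sour pools and 2.94 to 26.2 CPM in control pools, and 6 genes of basal cells and keratinocytes to 1468 and 2133 CPM against 70011 to 88551 CPM. The 10 stromal and endothelial markers summed to 27.3 and 95.5 CPM in sour pools and 2328 to 2896 CPM in control pools. Which cells of the pools gave the Cdh13 and Cdh4 reads was not tested. Of 3 tested type I cadherins 0 were called higher and 1 lower in sour pools, and of 7 other cadherins 2 were called higher and 2 lower, beside 15.0% higher and 14.4% lower over all genes. Clstn3, encoding calsyntenin 3, had 280 and 191 CPM in sour pools and 0 reads in the control pools (adjusted p = 7.01e-06 in edgeR), and Clstn2 had 37.2 and 26.5 CPM against 0 reads (adjusted p = 0.00116 in edgeR). Cdh3, P-cadherin of basal epithelium, fell to 4.96 and 0 CPM in sour pools, against 74.8 to 105.7 CPM in control pools (adjusted p = 0.000496 in edgeR). Celsr2 and Fat2 also fell, by 3.84 and 6.38 on the log2 scale. Among 9 catenins and junction partners 1, Jup, fell, by 1.14. Cdh1 differed by -0.01 (adjusted p = 0.986 in edgeR). Fat2 had 0 reads in both sour pools, so its fitted change is no bound.

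Both genes were read in single sour cells. Of 52 cells, 32 had Cdh13 reads (61.5%, interval 47.02 to 74.7%), at 6.73 to 1244 CPM, and 24 reached 50 CPM. Cdh4 was read in 12 cells (23.1%, 12.5 to 36.8%), at 20.8 to 763 CPM, and 8 reached 50 CPM. All 12 cells with Cdh4 also had Cdh13, where independence would give 7.38, with 20 cells having Cdh13 alone and 20 neither. At 50 CPM both genes were present in 5 cells, with 3.69 under independence. Cells with both had a median of 546861 reads, against 463245 in those with Cdh13 alone and 460617 in those with neither. The median number of genes detected was 4545.5 in cells with a Cdh13 read and 3422.5 in those without. For Cdh4 it was 4686 and 4041.5. The keratin and basal genes summed to a median of 1030 CPM in cells with Cdh4 and 1258 CPM in cells without it, and to 929 CPM in cells with Cdh13 and 1880 CPM in cells without it. The part of depth, of the number of genes detected and of keratinocyte RNA was not tested.

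**Figure D4:**
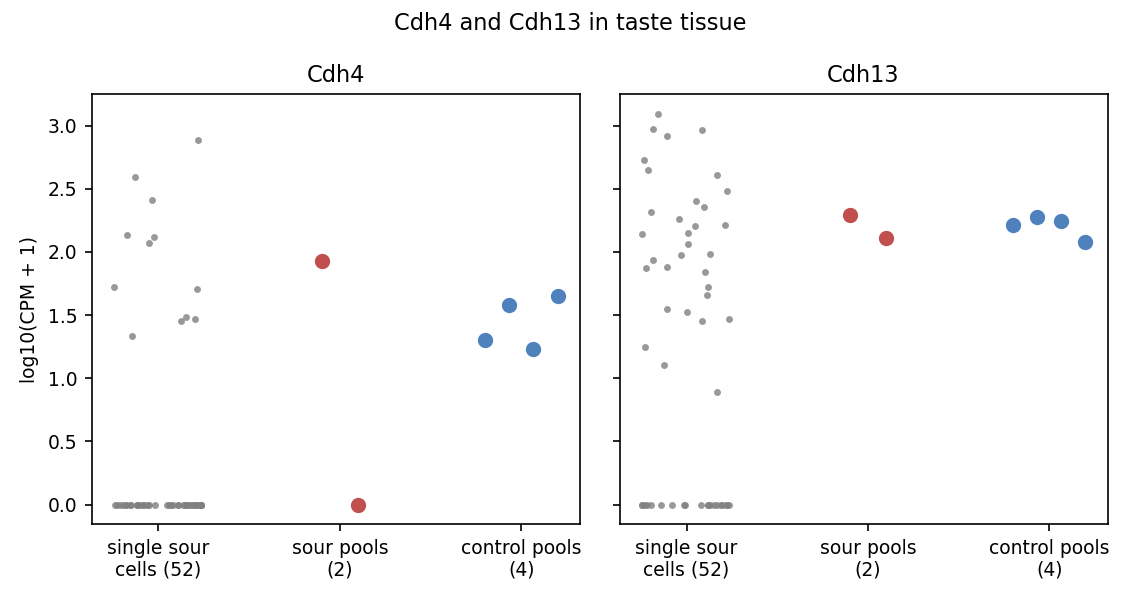
Cdh4 (left) and Cdh13 (right) in 52 single sour cells, 2 sour pools and 4 control pools, 1 point each, as log10(CPM + 1). Sour and control pools overlap for Cdh13 at 119.3 to 193.5 CPM, sour pools 1 and 2 lie at 84.3 and 0 CPM for Cdh4, and single cells spread between 0 and 1244 CPM for Cdh13.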

How the data were processed

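Both tables hold raw read counts per gene symbol, deposited without normalization (whole numbers with unequal totals). STAR and HTSeq with GRCm38 (mm10) were used, per the submitters' processing notes. Versions, settings and strand are not given in the sources used here. Symbols turned into dates by a spreadsheet (25 and 27 lines) were left out. Their share was 0.188% over the ganglion and up to 3.10% in a taste library. Values in CPM were scaled to 1000000 gene reads per cell or pool. Coordinates come from GENCODE M21.

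The members, lists and tests were chosen with earlier results of these data known. Ganglion cells needed at least 2000 genes. Reads were summed per experiment and group of at least 3 cells and tested with edgeR 4.0.16 (R 4.3.3, TMM, low counts filtered by group, quasi-likelihood, experiment as a block). Calls needed a log2 change of at least 1 and p under 0.05 after Benjamini-Hochberg adjustment. Cdh4 cells were too few for sums and for the planned test of exclusion. After seeing the data, limma 3.58.1 on means of log2(CPM + 1) (pseudocount 1) and exact sign-flip permutation tests over experiments were added. Alternatives included DESeq2 1.42.0, thresholds of 20 and 100 CPM and thinning with a fixed seed. The named genes were the study's subtype genes, called genes, up to 4 genes of each of 19 lists by p, and the 10 genes most like each cadherin. One gene that the rule names is not reported here. The scripts were tested on simulated data. Sour pools had 188503 and 403166 reads, control pools 343757 to 680954. No columns were identical, and 0 columns were left unused. Plots used matplotlib 3.10.9 and Python 3.11.15 with pandas 2.3.3, numpy 2.4.6 and scipy 1.17.1.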

Additional observations from a re-analysis of the deposited data

Results flagged for a closer look

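Of 12 groups tested for a value far from the others, 3 were marked. The groups were values of the 8 experiments and, for each gene, of the 4 control pools. Chance marks about 1 in 20 groups of normal values, and groups with many values of 0 are not of that kind. The share of Cdh4 cells among Piezo2-high cells was highest in JC07, at 10.3%, against 0 in the other experiments. The Cdh4 sum over Piezo2-high cells was likewise highest in JC07, at 15.6 CPM. The 3 cells behind the share, which gave most reads of the sum, had glial marker sums of 6480 to 21233 CPM, and the part of glial RNA was not tested. The Cdh13 sum over Piezo2-high cells was highest in JC09, at 27.9 CPM, where 1 cell gave 1482 of 1487 reads.

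The 83 cells with fewer than 2000 genes entered no comparison except the alternatives with at least 1000 genes. Of these, 7 had a Cdh13 read (8.43%, above the 3.61% that a count of 0 allows), with 3 to 546 reads and up to 14372 CPM. Cdh4 was read in 2 of the 83.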

How the results depend on the processing

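Cdh4 and Cdh13 cells numbered 8 to 18 and 38 to 82 under all thresholds, gene minimums, thinning and omissions tried. The share of Cdh13 cells in Cdh4 cells minus others was -6.99 percentage points, -10.5 at 100 CPM, -19.8 in Piezo2-low cells, 5.96 at 20 CPM, 6.96 after thinning and -15.8 (without JC07) to -2.42 without 1 experiment. The Cdh13 share difference by Piezo2 was -15.5 points (p = 0.0703, exact permutation) after thinning, and that of Cdh4 0.156 with cells of at least 1000 genes. For the log2 change of Cdh13 by Piezo2, DESeq2 gave -7.08, no filter -6.83, means of log2 values -1.32 (-1.08 with at least 1000 genes) while leaving out 1 experiment gave -7.77 to -5.96 in sums and -1.61 to -1.001 in means of log2 values. Of these 25 alternatives 10 passed the threshold (adjusted p 2.88e-09 with DESeq2), the others not. For Cdh4 DESeq2 gave -5.54 (adjusted p = 0.000143), the only 1 of 23 to pass.

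Called genes for Cdh4 cells were 175 in sums of at least 1 cell and 33 at 20 CPM in sums of at least 3 cells, where the median of all genes was -2.12 and -1.21. For Cdh13 cells they were 265 with DESeq2, 7 without a filter, 121 at 20 CPM and 3 with at least 1000 genes (both in means of log2 values). For Cdh13 against Cdh4 cells sums of at least 1 cell gave 1. The experiment was the block in each ganglion fit, since both groups of cells come from the same experiments. With no replicate block, 0 genes were called for Cdh13 cells, and by Piezo2 the log2 change was -3.04 for Cdh13 (adjusted p = 0.301) and -1.97 for Cdh4 (adjusted p = 0.717 in edgeR).

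In the pools Cdh13 was 0.0160 with DESeq2, 0.0146 with DESeq2's size factors and -0.40 to 0.21 without 1 pool, and Cdh4 -6.52 to 1.499. Of 491 alternative values for 39 results of named genes, 467 kept side and direction, 22 in 8 results changed sign and 2 newly passed. For Cdh4 cells the changes were Penk at 20 CPM (0.51) and P2rx3 with at least 1000 genes (0.13), without a Piezo2 limit (0.44) or without 1 experiment (-0.63 to 0.15). For Cdh13 cells they were Piezo2 at 20 CPM (-0.0365), without the limit (-1.22) or 1 experiment (-0.0110 to 0.62), Tac1 at 100 CPM (-0.46), with at least 3000 genes (-0.13) or without 1 experiment (-0.27 to 0.44), Spon1 (0.0489) and Egr2 (0.0655) without the limit, and Ret with at least 3000 genes (-0.00545) or without 1 experiment (-0.18 to 0.26). For Cdh13 against Cdh4 cells it was Penk at 100 CPM (-0.34), at 20 CPM (-1.21) or without 1 experiment (-0.12 to 0.29). The causes were not tested. Other scalings, no filter, DESeq2, no block and sums of at least 5 cells were not run for Cdh4 cells, since no experiment held 3 Piezo2-low Cdh4 cells at 50 CPM.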
